A study of Mus musculus with 2 samples.

Results

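The 9 genes described here are the embryonic globins Hba-x, Hbb-y and Hbb-bh1, the adult globins Hba-a1, Hba-a2, Hbb-bs and Hbb-bt, and the erythroid genes Alas2 and Gata1. They were taken by gene symbol from the 45777 genes listed for the mm10 mouse genome, and their levels were compared between 2 teratoma libraries, named here by their teratomas. Transcripts of all 3 embryonic globins were found only in the E14-Sox2TA/WT teratoma, whereas the 4 adult globins were abundant in both libraries. The summed adult level was between almost equal and 1.16-fold higher in the E14-Sox2TA/WT teratoma, depending on the scaling. The embryonic genes supplied 435 of 6759 globin reads (6.44%) in the E14-Sox2TA/WT teratoma and 0 of 5598 in the E14 teratoma.

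Hemoglobin is a tetramer of alpha-like and beta-like globin chains around heme. In the mouse embryo the first red cells arise in the blood islands of the yolk sac and use Hba-x (zeta), Hbb-bh1 and Hbb-y (epsilon-y), while red cells made later by the fetal liver and bone marrow use the adult alpha and beta genes. Alas2 encodes the erythroid form of the first enzyme of heme synthesis, and Gata1 encodes a transcription factor that red cell development requires.

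The study asked how a change at residue 258 of Sox2, a transcription factor of pluripotent cells, alters the way embryonic stem cells (ESCs) differentiate. E14 is a mouse ESC line, used unmodified (labelled WT) in one group. The cells of the other group, E14-Sox2TA/WT, were derived clonally from individual E14 cells in which T258A had been introduced by genome editing on 1 allele of Sox2, so that the other allele was wild type. Cells of either kind were inoculated under the skin of 3 BALB/c-nu mice, a strain without a thymus that keeps its own blood, vessels and bone marrow, and teratomas (tumours of mixed tissues) were harvested 14 days later. The age and sex of the mice are not given in the sources used here, nor whether 1 tumour or a pool of tumours went into a library. The protocol in the sample labels refers to RNA of an ESC line although the tissue given is teratoma. Each group had 1 polyA RNA-seq library, so there is no replicate check on any difference and no p-value is given. Every difference below compares the 2 libraries, not the genotypes.

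Reads assigned to genes numbered 50529171 for the E14 teratoma and 49030281 for the E14-Sox2TA/WT teratoma, and 24603 and 27830 genes had at least 1 read. Levels are given as TPM, a value per transcript length. Ratios are E14-Sox2TA/WT over E14, and the ratio of reads was scaled by the library totals. Intervals are exact 95% intervals of the reads, Clopper-Pearson for ratios of reads and shares, Poisson for TPM and conditional for ratios of odds. They cover counting error only, and reads without molecular identifiers are not independent molecules. At the median, the TPM ratio of a gene was 0.869 times its ratio of scaled reads, so both are given where the choice matters. Against the ratio of unscaled reads the factor was 0.896, a shift of -0.16 in log2. Teratomas hold blood of the host as well as cells of the graft, and reads of the host and of the graft cannot be told apart in these counts. In bulk RNA, fewer cells of a type and less RNA per cell cannot be told apart either.

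The sequences just upstream of the globin genes are shown here because the comparison is between genes of the same cluster that carry different promoters. RefSeq on GRCm38.p6 gave a promoter for 8 of the 9 genes, without an entry for Hbb-bh1. The 150 bases before the start of 4 genes follow, 5′ to 3′ on the strand of the gene, with capitals for matches on either strand to the CACCC motif, the CCAAT motif, the GATAA motif or the TATAA motif. The window of Hba-x lies at chr11:32276450-32276599 and that of Hba-a1 at chr11:32283522-32283671 on the plus strand, and those of Hbb-y at chr7:103853208-103853357 and Hbb-bs at chr7:103827929-103828078 on the minus strand.
Hba-x: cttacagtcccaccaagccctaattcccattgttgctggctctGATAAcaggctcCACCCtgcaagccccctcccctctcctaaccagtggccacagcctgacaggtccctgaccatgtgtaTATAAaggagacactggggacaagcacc
Hbb-y: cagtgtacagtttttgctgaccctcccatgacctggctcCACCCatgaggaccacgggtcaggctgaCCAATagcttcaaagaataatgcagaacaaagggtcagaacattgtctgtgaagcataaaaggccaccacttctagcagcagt
Hba-a1: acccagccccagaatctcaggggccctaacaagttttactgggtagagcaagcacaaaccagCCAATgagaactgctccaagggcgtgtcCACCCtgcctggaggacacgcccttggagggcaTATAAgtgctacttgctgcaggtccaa
Hbb-bs: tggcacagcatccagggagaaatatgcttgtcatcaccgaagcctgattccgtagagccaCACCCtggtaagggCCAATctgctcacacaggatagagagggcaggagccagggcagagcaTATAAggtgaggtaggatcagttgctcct
CACCC was present in each of these 4 windows. CCAAT was found in Hbb-y, Hba-a1 and Hbb-bs and TATAA in Hba-x, Hba-a1 and Hbb-bs, while GATAA was found in Hba-x alone of the 4. Among all 32851 promoter windows of the same length, the CACCC motif was in 37.4% on either strand, the CCAAT motif in 24.5%, the GATAA motif in 13.3% and the TATAA motif in 14.2%. A match describes the letters and is not evidence of a bound factor. The promoter of Hba-a2 was identical to that of Hba-a1 in 297 of 297 compared bases, with the 2 windows offset by 3 bases.

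The embryonic globins were examined first. Hba-x, the embryonic alpha-like chain (chromosome 11, 32276600 to 32278116 on GRCm38), had 0 reads in the E14 teratoma and 88 in the E14-Sox2TA/WT teratoma, where its TPM was 5.41. Hbb-bh1, the main beta-like chain of the first yolk sac red cells (chromosome 7, 103841638 to 103843162), had 0 and 201 reads and a TPM of 12.3 in the E14-Sox2TA/WT teratoma. Hbb-y, the other embryonic beta-like chain (chromosome 7, 103851754 to 103853207), had 0 and 146 reads and a TPM of 8.76. All 3 genes were thus detected in the E14-Sox2TA/WT teratoma and in no read of the E14 teratoma.

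A count of 0 allows up to 3 reads. Against this limit, set per gene, Hba-x was at least 30.2-fold higher in the E14-Sox2TA/WT teratoma, Hbb-bh1 at least 69.0-fold and Hbb-y at least 50.2-fold. With the same limit set once for their sum, the embryonic globins were at least 149-fold higher. How common a count of 0 in 1 library was in the table depended on the reads required in the other. Among the 29148 genes with a read in either library, 10.4% had 0 reads in E14 and more than 3 in E14-Sox2TA/WT, and 2.42% showed the reverse. With at least 50 reads in the library where the gene was detected, the shares were 1.05% for absence from E14 and 0.0755% for absence from E14-Sox2TA/WT. Of the 9 genes described here, 3 were absent from E14 with at least 50 reads in E14-Sox2TA/WT, and 0 showed the reverse.

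**Figure D1:**
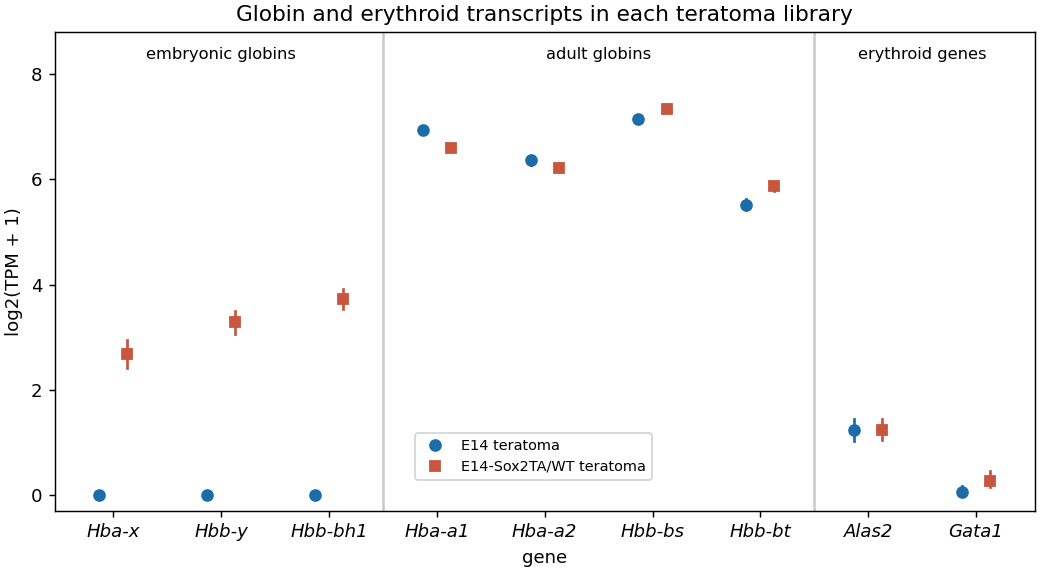
Level of each gene in each library as log2(TPM + 1), with the E14 teratoma as circles and the E14-Sox2TA/WT teratoma as squares; bars are 95% counting intervals, hidden where smaller than the symbol and not drawn at 0 reads. The 3 embryonic globins are at 0 in E14 and at a TPM of 5.41 to 12.3 in E14-Sox2TA/WT, while the 4 adult globins lie close together in both.

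The adult alpha-like genes Hba-a1 and Hba-a2 encode the alpha chain of adult hemoglobin. Hba-a1 (chromosome 11, 32283672 to 32284486) had 1646 reads and a TPM of 122 in the E14 teratoma, and 1450 reads and a TPM of 96.5 in the E14-Sox2TA/WT teratoma. Its TPM ratio was 0.789, and its ratio of scaled reads was 0.908 (0.845 to 0.975). Hba-a1 was therefore lower in the E14-Sox2TA/WT teratoma on both scales. Hba-a2 (chromosome 11, 32296492 to 32297310) had 1105 and 1117 reads, with a TPM of 81.5 and 73.8. Its ratio was 0.905 on TPM and 1.04 on scaled reads (0.958 to 1.13), so its direction depended on the scaling. Summed, the adult alpha-like genes had a TPM of 204 and 170, a ratio of 0.835 on TPM and of 0.962 on scaled reads (0.911 to 1.02).

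The adult beta-like genes Hbb-bs and Hbb-bt encode the beta chain. Hbb-bs (chromosome 7, 103826523 to 103827928) had 2167 reads and a TPM of 141 in the E14 teratoma, and 2782 reads and a TPM of 162 in the E14-Sox2TA/WT teratoma. Its ratio was 1.15 on TPM and 1.32 on scaled reads (1.25 to 1.40). Hbb-bt (chromosome 7, 103812524 to 103813923) had 680 and 975 reads, with a TPM of 44.9 and 57.6, a ratio of 1.28 on TPM and 1.48 on scaled reads (1.34 to 1.63). The TPM and the scaled reads of both beta-like genes were above those of E14 in the E14-Sox2TA/WT teratoma, by less than 2-fold. Their sum had a TPM of 186 and 220, a ratio of 1.18 on TPM and 1.36 on scaled reads (1.29 to 1.43).

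Over all 4 adult globins the summed TPM was 389.7 in the E14 teratoma and 389.9 in the E14-Sox2TA/WT teratoma, a ratio of 1.001. On scaled reads, 5598 and 6324 in number, the ratio was 1.16 (1.12 to 1.21), so whether the libraries were equal in adult globin depended on the scaling. On neither scale did an adult globin differ by 2-fold. The 7 globins together held 0.0111% of the reads in the E14 teratoma and 0.0138% in the E14-Sox2TA/WT teratoma.

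The pairs of adult genes are near copies, and reads from one can be counted on the other. In GENCODE transcripts, 67.5% of the 50-nucleotide stretches of Hba-a1 occurred in Hba-a2, and 86.9% of those of Hba-a2 in Hba-a1. For the beta-like pair, 65.8% of the stretches of Hbb-bs occurred in Hbb-bt and 58.3% of those of Hbb-bt in Hbb-bs. The split within a pair is therefore uncertain, and the sums do not depend on it. How reads that match both copies were counted is not given in the sources used here. The adult sums, and the shares and balances below that use them, may therefore also be affected, and this was not tested. Hba-x, Hbb-bh1 and Hbb-y had 0 stretches in the transcript of any other gene. In addition, mm10 carries the Hbb-bs and Hbb-bt pair of its reference strain, while the BALB/c strain carries a different pair of adult beta genes, Hbb-b1 and Hbb-b2, which have no row in the table. How reads of the host's own beta genes were placed was not tested.

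A share within a library does not depend on the scaling between libraries, but it does depend on how reads shared by the adult copies were counted. Of the alpha-like globin reads, Hba-x held 0 of 2751 in the E14 teratoma, with an exact upper limit of 0.134%. It held 88 of 2655 in the E14-Sox2TA/WT teratoma, or 3.31% (2.67 to 4.07). Of the beta-like reads, Hbb-bh1 and Hbb-y held 0 of 2847, with an upper limit of 0.129%, and 347 of 4104, or 8.46% (7.62 to 9.35). On TPM the shares in the E14-Sox2TA/WT teratoma were 3.08% and 8.74%. The embryonic share was therefore larger in the beta-like than in the alpha-like family of the E14-Sox2TA/WT teratoma, with intervals that did not overlap. The exact 95% lower limit of the ratio of odds between the libraries was 25.0 for the alpha-like and 70.8 for the beta-like family.

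**Figure D2:**
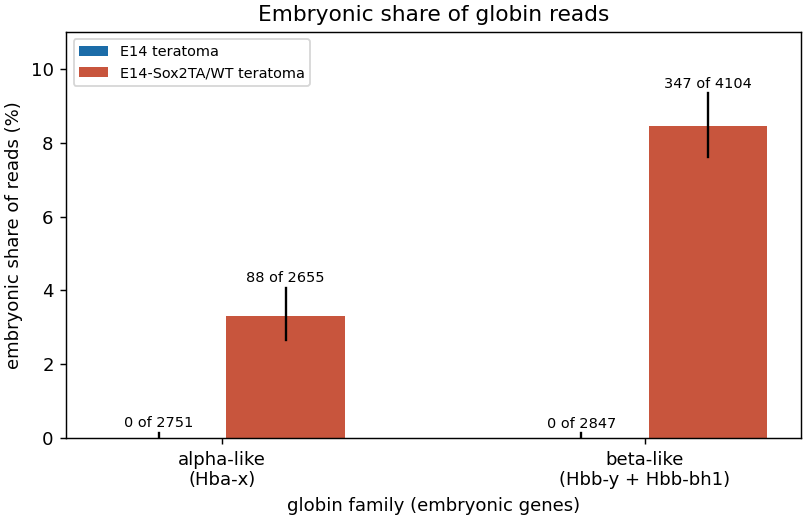
Share of globin reads from embryonic genes (percent) in the alpha-like family and the beta-like family of each library; black lines are 95% Clopper-Pearson intervals and labels give the reads behind each bar. The share is 0% in E14 in both families and, in E14-Sox2TA/WT, 3.31% for alpha-like and 8.46% for beta-like globin.

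The embryonic genes also differed among themselves. Within the E14-Sox2TA/WT teratoma, the order of TPM among them was Hbb-bh1 at 12.3 (10.6 to 14.1), Hbb-y at 8.76 (7.40 to 10.3) and Hba-x at 5.41 (4.34 to 6.67), and no neighbours in this order had overlapping counting intervals. Hbb-bh1 held 57.9% of the embryonic beta-like reads (52.5 to 63.2), and its TPM was 1.40 times that of Hbb-y. Summed embryonic beta-like TPM was 3.88 times the TPM of Hba-x. The excess of beta-like over alpha-like transcript was thus larger among the embryonic than among the adult genes, whose alpha-to-beta ratio of TPM in this library was 0.776.

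The balance of adult alpha and beta chains differed between the libraries. This comparison was added after seeing the data. Adult beta-like genes held 50.9% of adult globin reads (49.5 to 52.2) in the E14 teratoma and 59.4% (58.2 to 60.6) in the E14-Sox2TA/WT teratoma, a ratio of odds of 1.41 (1.31 to 1.52). The alpha-to-beta ratio of TPM was 1.10 in the E14 teratoma and 0.776 in the E14-Sox2TA/WT teratoma. The library with embryonic globin thus also had relatively more adult beta-like transcript. Within the pairs the differences were smaller: Hba-a1 held 59.8% (58.0 to 61.7) and 56.5% (54.5 to 58.4) of adult alpha-like reads, and Hbb-bs held 76.1% (74.5 to 77.7) and 74.0% (72.6 to 75.4) of adult beta-like reads. The order Hbb-bs, Hba-a1, Hba-a2, Hbb-bt was the same in both libraries, without overlap of the counting intervals of neighbours.

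Both globin clusters are arranged with an embryonic gene first in the direction of transcription. On chromosome 11, Hba-a1 starts 7.07 kb and Hba-a2 19.9 kb after the start of Hba-x. The theta-like genes Hbq1b and Hbq1a, which lie beside the adult copies, had 4 and 2 reads in the E14 teratoma and 8 and 9 in the E14-Sox2TA/WT teratoma. Their ratios of scaled reads were 2.06 (0.552 to 9.35) for Hbq1b and 4.64 (0.960 to 44.1) for Hbq1a, so that no difference was detectable at this depth. On chromosome 7, Hbb-bh1 starts 10.045 kb, Hbb-bs 25.3 kb and Hbb-bt 39.3 kb after the start of Hbb-y. Hbb-bh2, which lies 12.5 kb after it, had 0 reads in both libraries. Reads were therefore confined to 2 embryonic and 2 adult genes of the beta-like cluster among the 5 listed.

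**Figure D3:**
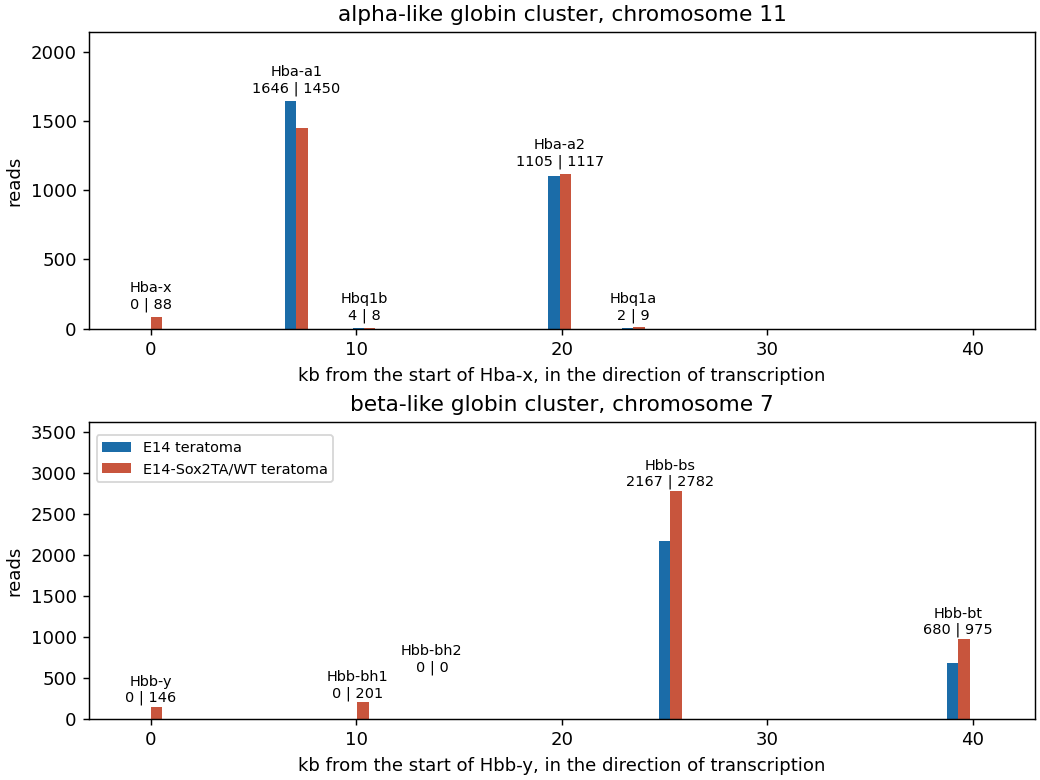
Reads on each gene of the alpha-like cluster and the beta-like cluster against the distance of its start from the first gene (kb), with E14 bars on the left and E14-Sox2TA/WT bars on the right of each pair; labels give both counts. The first genes, Hba-x and Hbb-y, have 0 reads in E14 and 88 and 146 in E14-Sox2TA/WT, and the bars of the adult genes are tall in both libraries.

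The 3 nearest genes on each side of the clusters were compared as well. Around the beta-like cluster, 6 of 6 were olfactory receptor genes with 0 reads in both libraries. Around the alpha-like cluster, 5 of 6 had a TPM of at least 1. Of these 5, 2 were above 0 and 3 below on the log2 ratio of TPM + 1, and 0 differed by 2-fold. Beyond the adult genes, Sh3pxd2b had a TPM of 27.9 and 16.8 and Ubtd2 of 57.3 and 42.5. On the other side Nprl3, the gene that holds the distal enhancers of the alpha-like cluster in its introns, had a TPM of 15.2 in the E14 teratoma and 15.3 in the E14-Sox2TA/WT teratoma. In a list of 5 genes known to lie near that cluster, 4 had a TPM of at least 1. Their median log2 ratio was 0.13, 3 were above 0 and 1 below, and 0 differed by 2-fold. In that list Snrnp25, a minor spliceosome component, had a TPM of 51.2 and 66.2, and Mpg, a DNA repair glycosylase, had 21.6 and 26.1. The presence of Hba-x in the E14-Sox2TA/WT teratoma was thus not accompanied by 2-fold differences in the measured genes of either set. The sets overlap, and of the measured genes of the list only Snrnp25 was not also among the nearest genes.

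Alas2 and Gata1 were low in both libraries. Alas2 (chromosome X, 150547417 to 150570622) had 65 reads and a TPM of 1.35 in the E14 teratoma, and 73 reads and a TPM of 1.36 in the E14-Sox2TA/WT teratoma. Its ratio was 1.01 on TPM and 1.16 on scaled reads (0.817 to 1.64), so a difference was not detectable at this depth. The summed adult globin TPM was 289 times that of Alas2 in the E14 teratoma and 286 times in the E14-Sox2TA/WT teratoma. Gata1 (chromosome X, 7959260 to 7976663) had 3 reads in the E14 teratoma and 11 in the E14-Sox2TA/WT teratoma, a TPM of 0.0429 and 0.209. Its ratio of scaled reads was 3.78 (0.998 to 21.1), and its TPM was under 1 in both libraries.

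With thresholds taken from the study's methods, a gene was called where the ratio of the deposited TPM was above 2 either way and the TPM was at least 10 in at least 1 library. This called 10.8% of 11578 tested genes higher and 18.7% lower in the E14-Sox2TA/WT teratoma. Of the 9 genes described here, 5 reached this TPM, the 4 adult globins and Hbb-bh1. Hbb-bh1 alone was called, as higher, and it reached a TPM of 10 only through the library in which it was detected. With a TPM of at least 1 as the minimum, which called 19.3% of 18558 genes higher and 18.9% lower, 8 of the 9 genes were tested, and the 3 embryonic globins were called higher. Each of them passed this minimum only through the E14-Sox2TA/WT teratoma, so these calls follow from the counts of 0 and add nothing to them. With FPKM in place of TPM, the rule called 1583 genes higher and 1655 lower, against 1253 and 2167 with TPM.

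The other genes that act in red cells were examined in lists. Over all 18558 genes with a TPM of at least 1, the median log2 ratio of TPM + 1 was -0.06, with 8819 genes above 0 and 9739 below. Among 10 erythroid transcription factors and cofactors, 7 had such a TPM, with 2 above 0, 5 below and a median of -0.36. Of these, 2 reached a TPM of 10 and 0 were called. They were Ldb1, the scaffold that joins erythroid enhancers to promoters, with a TPM of 112 and 106, and Lmo2, its bridging partner, with 18.8 and 14.4. Tal1, a DNA-binding partner in the same complex, had a TPM of 3.70 and 1.11. Klf1, which activates adult beta-globin through CACCC motifs, had 35 reads in the E14 teratoma and 15 in the E14-Sox2TA/WT teratoma, a ratio of 0.442 (0.224 to 0.830). Other listed genes lay on the opposite side. Nfe2, a factor of late red cells and megakaryocytes, had 7 and 40 reads, a ratio of 5.89 (2.61 to 15.6). Ikzf1, a lymphoid and erythroid factor, had a ratio of 1.99 (1.60 to 2.50), and Lyl1, a relative of Tal1, had 1.62 (1.25 to 2.09). Klf1 and Lyl1 lie on chromosome 8, whose median log2 ratio was -0.43 relative to all genes. Nfe2 lies on chromosome 15, whose median was 0.41 relative to all genes. The part of these shifts in the values was not tested. Chromosomes 7 and 11, which carry the globin clusters, had medians of -0.11 and -0.04 relative to all genes.

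Regulators known to act in the switch from embryonic or fetal to adult globin lay on both sides of 0. Of 9 listed genes, 8 had a TPM of at least 1, with 4 above 0, 4 below and a median log2 ratio of 0.00, and of the 7 with a TPM of 10, 1 was called higher and 3 lower, where 10.8% and 18.7% of all tested genes were. Bcl11a, a repressor of embryonic and fetal globin genes, fell from a TPM of 37.0 in the E14 teratoma to 6.92 in the E14-Sox2TA/WT teratoma. Sox6, which represses Hbb-y, fell from 10.8 to 3.01, and Myb, a factor of dividing blood progenitors, fell from 14.1 to 6.63. On scaled reads the ratio of Myb was 0.553 (0.502 to 0.609), which is less than a 2-fold difference. The RNA-binding protein gene Igf2bp1 rose from 20.7 to 53.0, while its relative Igf2bp3 had a TPM of 29.8 and 42.3. The repressor gene Zbtb7a had a TPM of 9.82 and 9.16. Mbd2, which binds methylated DNA, had 39.7 and 42.0, and Lin28b, a regulator of fetal blood, had 6.74 and 10.1. Bcl11a and Sox6 are also expressed in neurons and other tissues, and the cells that carried these transcripts were not resolved. Relative to Alas2, with a TPM under 2 in both libraries, the regulators Bcl11a, Sox6, Myb and Igf2bp1 were each more abundant in both libraries.

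In the list for heme synthesis and mitochondrial iron, 12 of 12 genes were measured, 3 above 0 and 9 below, with a median log2 ratio of -0.25. Only Abcb10, a mitochondrial transporter on chromosome 8, was called, as lower, with a TPM of 28.2 and 10.2. Of all tested genes, 18.7% were called lower. The most abundant were Tmem14c, a porphyrin carrier, with a TPM of 147 and 158, and Urod, an enzyme late in the pathway, with 81.7 and 67.7. In the list for iron uptake and erythropoietin response, 7 of 7 were measured, 5 above 0 and 2 below, with a median of 0.51. Trf, which encodes the iron carrier transferrin and is made by liver and yolk sac, rose from a TPM of 17.1 to 55.6. Tfrc, the transferrin receptor, had 40.4 and 65.7. Neither list showed the contrast of 0 against many reads that the embryonic globins showed.

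The red cell membrane and skeleton list had 9 of 15 genes measured at that minimum, with 1 above 0, 8 below and a median log2 ratio of -0.64. Of 3 genes with a TPM of 10, 2 were called lower, where 18.7% of all tested genes were. Add2, encoding beta-adducin, fell from a TPM of 57.7 to 9.15, and Dmtn, encoding dematin, fell from 26.7 to 9.15, and both are also known from neurons. Epb41, the gene of protein 4.1, had 67.3 and 43.9. In the list of red cell enzymes and late erythroid genes, 10 of 14 were measured, 3 above 0 and 7 below, with a median of -0.32. Of the 9 with a TPM of 10, 2 were called in each direction, against 10.8% higher and 18.7% lower of all tested genes. Car2, a carbonic anhydrase of many tissues, rose from 32.9 to 143, and Alox15, a lipoxygenase of late red cells and of leukocytes, rose from 3.51 to 14.4. Prdx2, an abundant peroxiredoxin on chromosome 8, fell from 1315 to 498, and Bpgm, which makes the hemoglobin ligand bisphosphoglycerate, fell from 179 to 64.3. Ahsp, the alpha-globin chaperone, has no row in the table.

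**Figure D4:**
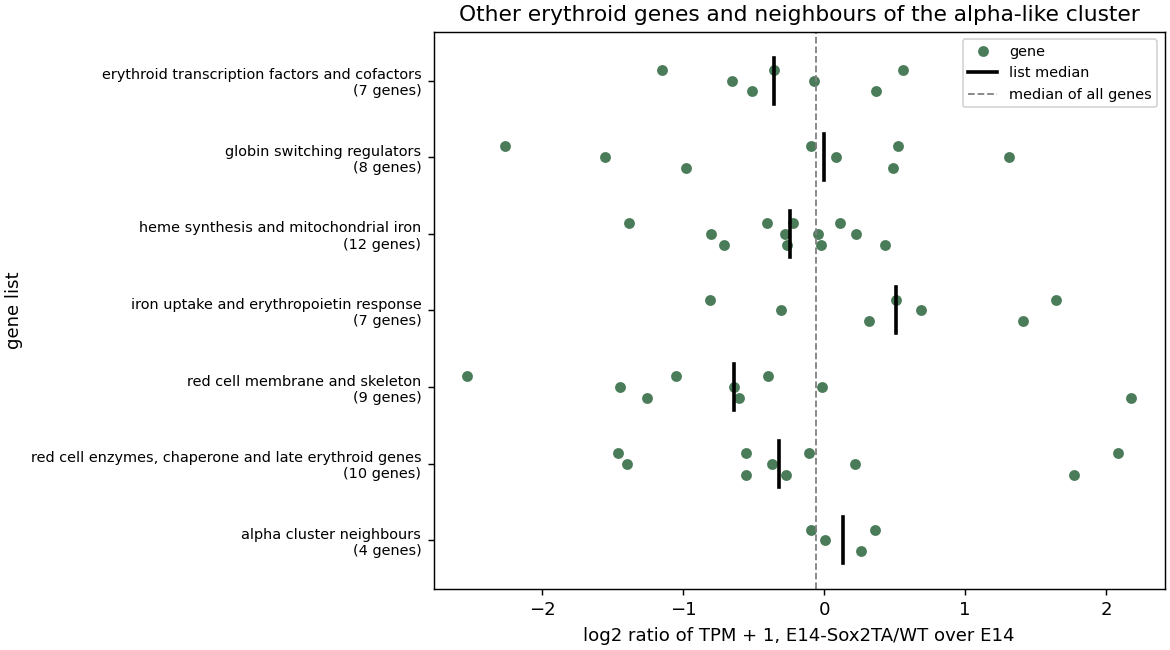
Log2 ratio of TPM + 1 between the libraries (horizontal axis) for each gene with a TPM of at least 1, by gene list; black bars are list medians and the dashed line is the median of all genes. Medians run from -0.64 for the red cell membrane to 0.51 for iron uptake, and genes lie on both sides of 0 in every list.

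Red cell genes with few reads in the E14 teratoma were compared by their reads. Slc4a1, the anion exchanger band 3, had 2 reads in the E14 teratoma and 34 in the E14-Sox2TA/WT teratoma, a ratio of 17.5 (4.49 to 151). Rhd, a Rhesus protein gene and the membrane gene above 0 in the count just given, had 2 and 154 reads, a ratio of 79.4 (21.6 to 661). Both genes were thus at very few reads in the E14 teratoma and detected in the E14-Sox2TA/WT teratoma; they were chosen after their values were seen. Across the 39 genes of the transcription factor, membrane and late erythroid lists, 6 (15.4%) had 0 reads in E14 and more than 3 in E14-Sox2TA/WT, against the 10.4% of all genes given above, and 0 showed the reverse. The 6 were Gfi1b, Epb42, Rhag, Kel, Icam4 and Hemgn, with between 4 and 16 reads. Of 8 erythroid markers with a row, 7 had more reads in the E14-Sox2TA/WT teratoma and Klf1 fewer. Their summed TPM was 4.73 in the E14 teratoma and 4.18 in the E14-Sox2TA/WT teratoma, with 211 and 264 reads, and 2.51 and 2.57 without the erythropoietin receptor gene Epor.

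Markers of other cell types that accompany blood or the yolk sac differed between the same libraries. All 9 markers of visceral endoderm and yolk sac were above 0. Their median log2 ratio was 3.81, with a summed TPM of 27.1 in the E14 teratoma and 429 in the E14-Sox2TA/WT teratoma. Of the 7 with a TPM of 10, 7 were called higher, where 10.8% of all tested genes were. All of these but Trf reached this TPM only through the E14-Sox2TA/WT teratoma, so the minimum itself favoured a call as higher. Among them Afp, the alpha-fetoprotein gene, rose from a TPM of 0.614 to 151. The first red cells form in the blood islands of the yolk sac, but this list does not separate yolk sac from other tissues. Trf, for example, is also made by liver. Whether yolk sac tissue was present was not tested, nor was the part of this difference in the embryonic globin values.

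Among markers of blood and vessels, 8 of 8 macrophage genes were above 0, with a summed TPM of 812 and 1450. The neutrophil genes had a summed TPM of 9.92 and 90.3, with Ngp, Camp, Elane and Ly6g at 0 reads in the E14 teratoma. Most of that difference was Ltf, the lactoferrin gene, at 0.853 and 62.9, and without it the sums were 9.07 and 27.4. The platelet genes had 19.5 and 52.0, of which Pf4 made up 11.7 and 40.5, and without it the sums were 7.80 and 11.5. Of the platelet glycoprotein genes, Gp1bb had 6.41 and 3.93, Gp1ba had 3 reads and 0, and Gp9 had 0 reads in both libraries. The lymphocyte genes had 0.374 and 3.09, with Ms4a1, Cd3e, Nkg7 and Ncr1 at 0 reads in the E14 teratoma and Cd3g and Klrb1c at 0 in both. The endothelial genes had 109 and 142. The summed TPM was thus higher in the E14-Sox2TA/WT teratoma for each of these 5 lists, though not for each gene, while the ratio of summed adult globin TPM was 1.001. Of 8 markers of hemogenic endothelium and blood progenitors, 7 were measured, 3 above 0 and 4 below, with a summed TPM of 102 and 91.6. In that list Runx1, required for blood stem cells, had 371 and 926 reads, and Etv2, which specifies blood and vessel precursors, had 0 and 44. In the other direction Kit, the stem cell factor receptor, had a TPM of 25.3 and 17.7, Mecom had 9.61 and 6.87, and Myb, given above, was the gene of this list called lower. The part of any of these cell types in the globin values was not tested.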

How the data were processed

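The authors sequenced polyA RNA and deposited read counts per gene, not normalized, together with FPKM (counts per transcript length and library size) and TPM (the same rescaled to a fixed sum) for 45777 mm10 genes. The submitters' processing notes name bcl2fastq 2.20.0, Trimmomatic, HISAT2 2.1.0 and StringTie 2.1.3b, without roles, and whether counting used strand is not given in the sources used here. From these deposited values, TPM ratios, ratios of library-total-scaled counts with 95% Clopper-Pearson intervals, within-library shares and list medians (1 added to TPM, genes with a TPM of at least 1) were computed. With 1 library per group no test was run. Calls followed the study's methods (fold above 2, genes under a TPM of 10 in both libraries left out). The 9 genes and all lists were chosen with earlier results of these data known. One listed gene is not reported here and was left out of the lists. Genes named were the 9, other globins with a row, in each list the 2 most abundant and up to 5 called genes, and Klf1, Bcl11a, Sox6, Myb and Nprl3. Other names (Tal1, Nfe2, Ikzf1, Lyl1, Igf2bp3, Zbtb7a, Lin28b, Mbd2, Sh3pxd2b, Ubtd2, Mpg, Rhd, Slc4a1, the genes at 0 reads and the markers) were chosen after their values were seen. Coordinates and promoters were from RefSeq GRCm38.p6, and shared stretches were from GENCODE transcripts. Depth (50529171 and 49030281 reads) limits the genes with few reads. Scripts were tested on simulated data. Software comprised R 4.3.3 with edgeR 4.0.16 (TMM factors only) and Python 3.11.15 with scipy 1.17.1, numpy 2.4.6, pandas 2.3.3 and matplotlib 3.10.9.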

Additional observations from a re-analysis of the deposited data

How the results depend on the processing

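No paired analysis was possible because each group has 1 library, and for the same reason no library could be left out. Of 103 alternative values, 77 stayed within counting error, the interval of the median or 1.5 times the count, and 26 moved, among them 8 of 24 ratios of single genes. The summed adult globin ratio, 1.001 on TPM, was 1.15 on FPKM, 1.16 on counts scaled by library total, 1.07 with TMM factors and 1.07 with median-of-ratios size factors, since these scalings set the libraries at different totals. Against a limit of 3 reads, summed embryonic globin was 149-fold higher. This value was 137 with TMM factors, 137 with median-of-ratios factors and 130 on the TPM scale, the last added after seeing the data. The embryonic share of TPM in the E14-Sox2TA/WT library was 5.31% instead of 3.08% for alpha-like globin when only the more abundant adult copy was kept. For beta-like globin, at 8.74%, it was 11.5% with that copy alone, 3.84% with Hbb-y alone as embryonic and 5.29% with Hbb-bh1 alone, each by construction of the share. Of the 9 genes, 1 was called higher, 3 with a TPM minimum of 1 and 4 without a filter. Over all genes, 1253 were called higher, 2109 at a fold above 1.5, 663 at a fold above 3, 3585 with a TPM minimum of 1 and 9156 without a filter. The lower calls, 2167, became 3742, 1015, 3508 and 6015 under the same settings. The odds ratio of adult beta-like to alpha-like reads, 1.41, was 1.41 on TPM and 1.46 with Hbb-bs and Hba-a1 alone, all 3 added after seeing the data. The variation from tumour to tumour is outside counting error, and 1 library per group gives no measure of it.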
